A study of Homo sapiens with 23 samples.

Results

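The SLC39 family, also called ZIP, consists of membrane proteins that carry zinc into the cytosol, from outside the cell or out of intracellular compartments, and some members also carry manganese or iron. In the gut, SLC39A4 takes up dietary zinc at the apical side of enterocytes and SLC39A5 sits at their basolateral side. In the liver, SLC39A14 takes up zinc, manganese and iron that is not bound to transferrin, and SLC39A8 is the closest relative of SLC39A14. The 10 members described here, SLC39A1, SLC39A4, SLC39A5, SLC39A6, SLC39A7, SLC39A8, SLC39A9, SLC39A10, SLC39A11 and SLC39A14, were taken by gene symbol from the 60564 genes of the expression tables. The family's 4 other genes, SLC39A2, SLC39A3, SLC39A12 and SLC39A13, were kept apart as a comparison list. The data were mRNA levels in TPM, a level that accounts for transcript length and is scaled to the same total in each library, and they say nothing of zinc transport itself.

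The libraries came from a microfluidic gut/liver-on-a-chip platform holding Caco-2 cells, a human colorectal adenocarcinoma line used as a model of intestinal epithelium, and HepG2 cells, a human hepatoblastoma line used as a model of hepatocytes. Each line was either mono-cultured or co-cultured with the other, and was kept for 1 day with 1 mM free fatty acids (FFAs, palmitic and oleic acid) or without FFAs as the control. For the medium of this day, shared by all groups, the labels give a low serum content and the study's methods a serum-free medium with albumin. Each of the 8 groups held 3 libraries, except the co-cultured Caco-2 controls with 2, which gave 11 Caco-2 and 12 HepG2 libraries. Both lines are tumour lines, each one cell type without the other cells of its organ. The labels do not say that replicates were separate cultures, and the study's methods speak of independent experiments without tying libraries to them, so p-values measure the spread between these libraries, which may be technical.

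Each line had the higher summed level of its own markers, though not of every single marker. The 10 hepatocyte markers summed to 49583 to 73879 TPM in HepG2 and to 3443 to 5620 TPM in Caco-2, with none of the 10 listed at 0 in either line. The 10 markers of intestinal epithelium summed to 881 to 1174 TPM in Caco-2, with 0 to 2 of them at 0, and to 159 to 255 TPM in HepG2, with 2 to 4 at 0. In Caco-2 the hepatocyte markers thus summed to more than the intestinal ones. CDX2, a transcription factor of intestinal identity, was at 60.4 to 136 TPM in Caco-2 and did not exceed 0.73 TPM in HepG2. CDX1 and FABP2 were near 0 in Caco-2, at 0.18 and 0.03 TPM at most. FABP2 was higher in HepG2, at 0.63 to 2.91 TPM. VIL1, at 153 to 244 TPM, made up most of the intestinal sum in HepG2. TF, the transferrin made by hepatocytes, reached 42.8 and 133 TPM in replicate 1 of the co-cultured Caco-2 controls and of the co-cultured Caco-2 cells with FFAs, or 0.684% and 1.88% of the mean in co-cultured HepG2 cells of the same treatment. AMBP, another secreted protein of hepatocytes, was at 23.5 and 62.0 TPM in the same libraries. In the other 9 Caco-2 libraries TF was at 4.17 to 10.2 TPM and AMBP at 6.47 to 13.3 TPM. Whether the libraries held RNA of the other line was not tested. Libraries held 19259 to 23689 genes above 0 TPM. A lower level in such bulk RNA can mean fewer cells with the transcript or less of it per cell, which cannot be told apart.

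MTF1, the zinc-sensing transcription factor that drives metallothionein genes, binds metal response elements, whose core was searched here as TGCACNC or TGCGCNC on both strands. RefSeq promoter windows on GRCh38.p14, from 250 bases before to 50 bases after a gene's start, were at hand for 8 of the 10 members (14 windows, since a gene can have several starts). No window was at hand for SLC39A4 and SLC39A14, so these members were not searched. The core was found in 5 of the 14 windows (35.7%), against 10377 of 35116 windows of all genes (29.6%), so its share among members was close to that of promoters at large. The 5 matches are shown because the targets of this metal sensor are described further on, with the core in capitals and some bases on each side:
SLC39A1, chr1:153963756-153963784, minus strand: tcctccacagaTGCGCCCcagggccccag
SLC39A6, chr18:36129340-36129368, minus strand: ccccgcggcgcTGCGCGCggcggtaatta
SLC39A8, chr4:102345584-102345612, minus strand: gccggcggtccTGCGCCCcggcgtggacg
SLC39A10, chr2:195657248-195657275, plus strand: cggagaggagaTGCACACggcactcgag
SLC39A5, chr12:56230726-56230754, plus strand: gggctaggaggGGGTGCAtgtccatctca
In SLC39A5 the capitals read as the core on the opposite strand. The core starts 236, 119 and 17 bases before the start in SLC39A1, SLC39A8 and SLC39A6, and 33 and 20 bases after it in SLC39A10 and SLC39A5. The windows of the metallothionein genes MT2A and MT1X held 8 and 4 matches. That of the exporter SLC30A1 held 2, and both windows of the exporter SLC30A10 held 0. A match is a description of the letters and not a site known to be bound.

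All 10 members were detected in every library and all 10 passed the filter on low values of each test, which kept a gene whose average reached 1 TPM in some group. In the tests within HepG2, SLC39A8 passed only through co-culture with FFAs, at 1.01 TPM. Its averages in the other HepG2 groups were 0.74 to 0.94 TPM. In GENCODE 44 on GRCh38, SLC39A1 lies at chr1:153959099-153968184 on the minus strand and SLC39A5 at chr12:56230049-56237846 on the plus strand. SLC39A6 lies at chr18:36108531-36129385 (minus), SLC39A7 at chr6:33200305-33204439 (plus) and SLC39A8 at chr4:102251080-102431258 (minus). SLC39A9 lies at chr14:69398015-69462390 (plus), SLC39A10 at chr2:195575977-195737702 (plus) and SLC39A11 at chr17:72645949-73092712 (minus). SLC39A4 and SLC39A14 are both on chromosome 8. A protein-coding gene on the opposite strand overlaps SLC39A1 (CREB3L4), SLC39A5 (ANKRD52), SLC39A7 (RXRB) and SLC39A9 (ERH). Another protein-coding gene, ENSG00000285779, overlaps SLC39A1 on the same strand, where strand could not separate reads. Whether counting used strand is not given in the sources used here, so reads of all these pairs may not be fully separated.

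Both lines had SLC39A14 as the most abundant member, and they differed most in SLC39A4 and SLC39A8. In Caco-2 the median TPM over the 11 libraries fell in the order SLC39A14 (410.2), SLC39A1 (263), SLC39A5 (195), SLC39A7 (111), SLC39A9 (61.6), SLC39A10 (41.4), SLC39A6 (26.2), SLC39A11 (23.5), SLC39A4 (22.3) and SLC39A8 (14.6). Neighbours in this order had separate ranges except SLC39A1 and SLC39A5, SLC39A6 and SLC39A11, SLC39A11 and SLC39A4, and SLC39A4 and SLC39A8. In HepG2 the order over 12 libraries was SLC39A14 (897), SLC39A4 (412), SLC39A1 (133), SLC39A7 (123), SLC39A5 (80.8), SLC39A6 (46.8), SLC39A9 (33.6), SLC39A11 (26.6), SLC39A10 (20.7) and SLC39A8 (0.80). There the ranges of SLC39A14 and SLC39A4, SLC39A4 and SLC39A1, SLC39A6 and SLC39A9, and SLC39A10 and SLC39A8 were separate, while the other 5 pairs of neighbours overlapped.

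The summed level of the members was 1085 to 1262 TPM in Caco-2 (median 1168) and 1610 to 1916 TPM in HepG2 (median 1797), with no overlap between the lines. In Caco-2, SLC39A14, SLC39A1 and SLC39A5 together made up 70.8% to 77.3% of that sum. In HepG2, SLC39A14, SLC39A4 and SLC39A1 made up 77.6% to 85.6%. The mean SLC39A14 level exceeded that of 99.4% of all listed genes in Caco-2 and 99.8% in HepG2. SLC39A9, an intracellular member of the Golgi, varied least among libraries in both lines, with coefficients of variation of 5.68% and 7.70%. The most variable members were SLC39A4 in Caco-2 (49.3%) and SLC39A8 in HepG2 (42.4%).

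**Figure D1:**
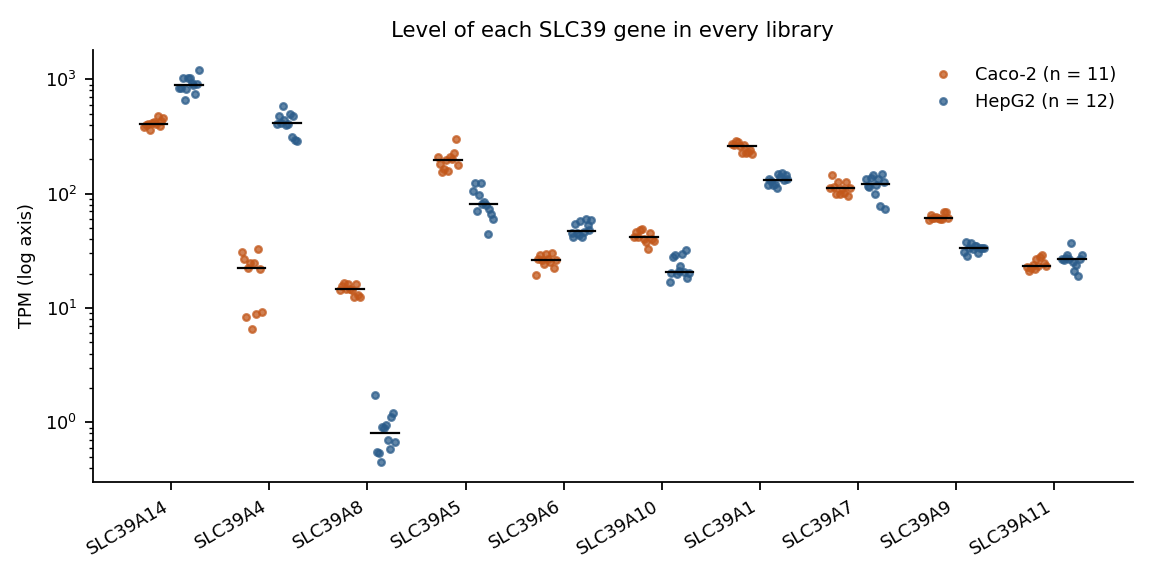
Level of each SLC39 member in TPM (log axis) in the 11 Caco-2 (orange) and 12 HepG2 (blue) libraries, with 1 point per library and a black line at the median of each line. SLC39A4 is higher in all HepG2 libraries and SLC39A8 in all Caco-2 libraries, while SLC39A7 and SLC39A11 overlap.

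SLC39A4, whose loss causes the inherited zinc deficiency acrodermatitis enteropathica, was far more abundant in the liver line than in the intestinal line. In Caco-2 it was at 31.1, 26.8 and 8.37 TPM in mono-cultured controls, 22.3, 24.5 and 6.61 TPM with FFAs in mono-culture, 24.7 and 8.80 TPM in co-cultured controls, and 33.1, 22.0 and 9.20 TPM with FFAs in co-culture. In HepG2 the same groups had 408, 482 and 416 TPM, then 579.9, 436 and 395 TPM, then 405, 493 and 315 TPM, and lastly 480.4, 295 and 287 TPM. Every HepG2 library was above every Caco-2 library. The ratio of HepG2 to Caco-2 group means was 19.7 and 24.2 in mono- and co-cultured controls, and 26.4 and 16.5 in mono- and co-culture with FFAs.

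Caco-2 libraries fell into separate ranges of SLC39A4, with 4 libraries at 6.61 to 9.20 TPM and the other 7 at 22.0 to 33.1 TPM. The low ones were replicate 3 of the mono-cultured controls and of both FFAs groups, and replicate 2 of the co-cultured controls, so both ranges occurred in each Caco-2 group. These 4 libraries also held the most genes above 0 TPM of the Caco-2 libraries. Their counts were 22637, 23682, 23252 and 23689 in that order, mono-culture before co-culture with FFAs. The other 7 libraries held 20996 to 22126. What lies behind this was not tested. The summed level of the 10 intestinal markers, most of it from VIL1 and CDH17 (means 465 and 407 TPM), did not follow the split of SLC39A4. It was 1044 TPM in the low library with FFAs in mono-culture and 974 TPM in each of the other libraries of that group, 965.5 TPM in the low and 964 TPM in the other co-cultured control, but lowest of its group in the low libraries of mono-cultured controls (881 TPM) and of co-culture with FFAs (946 TPM). The TF percentages given above for replicate 1 of the co-cultured groups, applied to the HepG2 means of SLC39A4, come to 2.77 and 6.65 TPM, beside the 24.7 and 33.1 TPM of these libraries. The spread set a wide interval on each SLC39A4 effect within Caco-2.

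SLC39A8, which carries zinc and manganese, showed the opposite difference. Caco-2 libraries held 14.4, 15.6 and 16.6 TPM in mono-cultured controls, 14.6, 16.4 and 14.6 TPM with FFAs in mono-culture, 14.3 and 12.6 TPM in co-cultured controls and 16.3, 13.0 and 12.5 TPM with FFAs in co-culture. HepG2 libraries held 1.73, 0.55 and 0.54 TPM, then 0.45, 0.92 and 0.90 TPM, then 0.94, 0.70 and 0.58 TPM, and 1.12, 1.22 and 0.68 TPM in the same groups. The lines did not overlap, and the ratio of Caco-2 to HepG2 means ran from 13.8 to 20.0 over the 4 conditions. Because the HepG2 means were about 1 TPM, changes on the log2(TPM + 1) scale of the tests understate these ratios.

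SLC39A14 in Caco-2 was at 385, 398 and 410.2 TPM in mono-cultured controls, 362, 414 and 421 TPM with FFAs in mono-culture, 407 and 474 TPM in co-cultured controls, and 393, 434 and 463 TPM with FFAs in co-culture. HepG2 values in the same order of groups were 839.9, 841 and 1029 TPM, then 664, 814 and 1021 TPM, then 1031, 934 and 889 TPM, and 748, 906 and 1211 TPM. All HepG2 libraries were above all Caco-2 libraries, with a ratio of means of 2.09 to 2.27 over the conditions.

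SLC39A1, a widely expressed importer of the plasma membrane, was higher in Caco-2. Its levels there were 271, 266 and 291 TPM in mono-cultured controls, 281, 263 and 229 TPM with FFAs in mono-culture, 267 and 228 TPM in co-cultured controls, and 230.4, 239 and 221 TPM with FFAs in co-culture. HepG2 libraries held 119, 134 and 130.3 TPM, then 118, 123 and 113 TPM, then 147, 141 and 151 TPM, and 132, 145 and 135 TPM. The ratio of Caco-2 to HepG2 means was 2.16 and 2.18 in mono-culture and 1.69 and 1.67 in co-culture, for controls and FFAs in that order.

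SLC39A5 was also higher in Caco-2, at 208, 183 and 154 TPM in mono-cultured controls, 164, 195 and 157 TPM with FFAs in mono-culture, 208 and 199 TPM in co-cultured controls, and 224, 302 and 177 TPM with FFAs in co-culture. In HepG2 it was at 106, 123 and 71.2 TPM, then 97.1, 125 and 81.5 TPM, then 84.5, 80.1 and 44.1 TPM, and 73.5, 66.5 and 59.5 TPM. The lowest Caco-2 library (154 TPM) exceeded the highest HepG2 library (125 TPM). The ratio of means was 1.82 and 1.70 in mono-culture and 2.92 and 3.52 in co-culture, for controls and FFAs, the opposite order of cultures to SLC39A1.

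**Figure D2:**
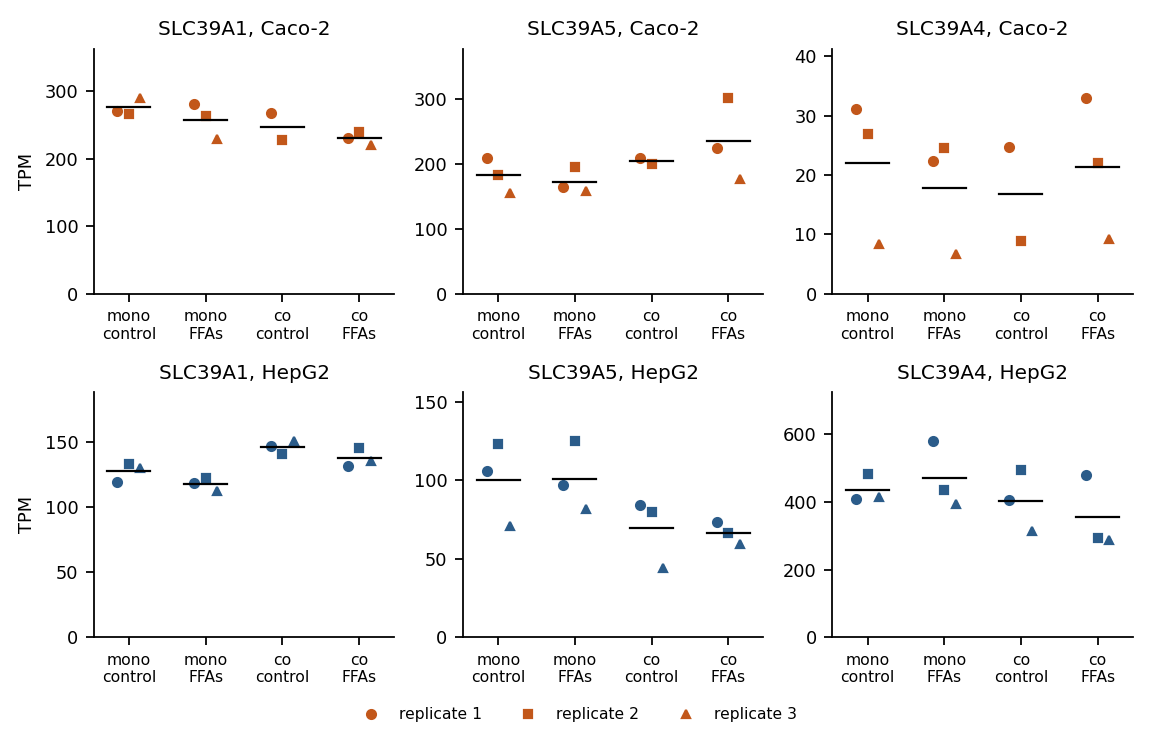
Level in TPM (linear axis from 0) of SLC39A1, SLC39A5 and SLC39A4 in each of the 8 groups, with 1 marker per library, its shape giving the replicate number, and a line at the group mean. SLC39A1 is lower in co-cultured than in mono-cultured Caco-2 means and higher in co-cultured than in mono-cultured HepG2 means, SLC39A5 shows the reverse, and SLC39A4 in Caco-2 has a library under 10 TPM in each group.

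The remaining members stayed in narrower bounds. SLC39A9 was at 58.4 to 69.4 TPM in Caco-2 and 28.5 to 37.5 TPM in HepG2, and SLC39A10 at 33.0 to 49.0 TPM and 16.9 to 32.2 TPM, with no overlap of the lines for either gene. SLC39A6, the close relative of SLC39A10, was the other way round at 19.5 to 30.2 TPM in Caco-2 and 41.6 to 59.9 TPM in HepG2. SLC39A7, which releases zinc from the endoplasmic reticulum, was at 96.1 to 144 TPM and 74.1 to 149 TPM, and SLC39A11, an intracellular member, at 20.9 to 28.8 TPM and 19.2 to 37.3 TPM. The lines overlapped for these last genes.

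The lines were compared within each culture and treatment with limma on log2(TPM + 1), with p adjusted by the Benjamini-Hochberg method over 16495 genes, and a gene was called at an adjusted p under 0.05. In mono-cultured controls 8 of the 10 members were called, beside 62.4% of all genes tested. With FFAs in mono-culture 8 were called (background 61.1%), in co-cultured controls 7 (58.8%) and with FFAs in co-culture 8 (61%). A call was therefore common between these lines, and what the members show is the sizes and directions. The median change of all genes, Caco-2 over HepG2, was 0.20, 0.23, 0.27 and 0.24 (log2) in these 4 contrasts and 0.04 in mono-cultured controls after median-of-ratios scaling, and a member's change is best read against that shift.

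In mono-cultured controls SLC39A8 was higher in Caco-2 by 3.14 (log2, SE 0.20, limma adjusted p = 4.87e-11) and SLC39A1 by 1.11 (SE 0.08, adjusted p = 9.49e-10). SLC39A10 was higher by 0.99 (SE 0.20, adjusted p = 0.000287), SLC39A9 by 0.91 (SE 0.10, adjusted p = 9.97e-08) and SLC39A5 by 0.88 (SE 0.24, adjusted p = 0.00342). Less the median of all genes these 5 differences were 2.94 for SLC39A8, 0.91 for SLC39A1, 0.79 for SLC39A10, 0.71 for SLC39A9 and 0.68 for SLC39A5. The log2 change was -4.42 for SLC39A4 (SE 0.50, adjusted p = 2.88e-07), -1.18 for SLC39A14 (SE 0.15, adjusted p = 1.78e-06) and -0.88 for SLC39A6 (SE 0.16, adjusted p = 0.000115), all lower in Caco-2, or -4.62, -1.38 and -1.08 less the median. The importer of the enterocyte apical membrane was thus lower in the intestinal line than in the liver line, while that of the basolateral membrane was higher. All 8 directions were the same in the other 3 contrasts, where the call of SLC39A10 in co-cultured controls was missed (0.53, adjusted p = 0.0505). That SLC39A10 value was 0.27 (adjusted p = 0.365) after median-of-ratios scaling and 0.26 (adjusted p = 0.374) after quantile normalization.

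SLC39A7 and SLC39A11 were not called in any of the 4 contrasts. For SLC39A7 in mono-cultured controls the change was 0.00 (95% interval -0.47 to 0.47), and for SLC39A11 it was -0.27 (95% interval -0.57 to 0.04, limma adjusted p = 0.120). The sign of the SLC39A11 change in mono-culture was negative under each scaling. In mono-cultured controls it was -0.45 (adjusted p = 0.0125) after median-of-ratios scaling and -0.51 (adjusted p = 0.0068) after quantile normalization. With FFAs in mono-culture it was -0.33 (adjusted p = 0.0550) without further scaling, -0.55 (adjusted p = 0.0035) after the former and -0.60 (adjusted p = 0.002) after the latter. In co-culture the SLC39A11 change altered sign with the scaling, as did that of SLC39A7 in mono-cultured controls, so no direction is given there.

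**Figure D3:**
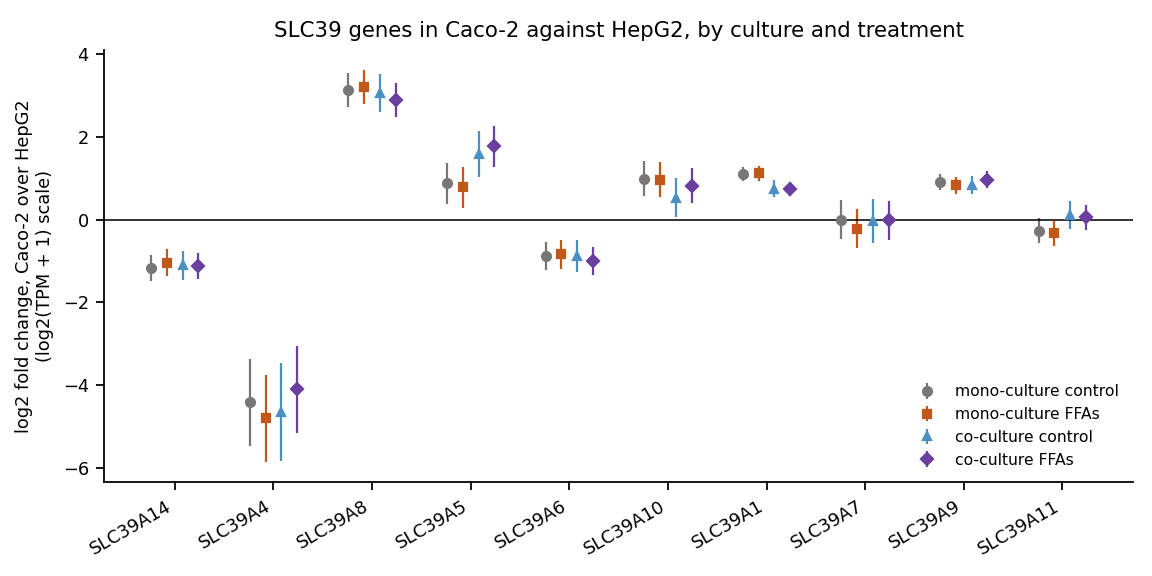
Change of each member between the lines (log2, Caco-2 over HepG2, on log2(TPM + 1)) in the 4 combinations of culture and treatment, with bars for 95% intervals. SLC39A8 lies near 3 and SLC39A4 between -4.11 and -4.81 in the 4 conditions, and the intervals of SLC39A7 include 0 in all of them.

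No member was called in any comparison of FFAs with control. In Caco-2, where 15081 genes were tested, 0% of genes passed in mono-culture, 0.0199% in co-culture, 0% with both cultures averaged and 0% for the difference of the FFAs effect between cultures. In HepG2, where 14255 genes were tested, the share was 0% in each of these 4 comparisons. At an unadjusted p under 0.05 the count of members was still 0 in all 8 comparisons, beside 2.61%, 2.83%, 3.99% and 1.94% of all genes in Caco-2 and 2.24%, 1.84%, 3.49% and 1.16% in HepG2, in the order given. A gene with no call has not been shown to be equal with and without FFAs, so the intervals matter.

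Averaged over both cultures, the FFAs effects in Caco-2 ran from -0.10 (log2) for SLC39A1 (95% interval -0.26 to 0.05) to 0.14 for SLC39A10 (95% interval -0.04 to 0.33). The median over the 10 members was 0.03 and that of all genes 0.01. SLC39A4 had the widest interval there, -0.998 to 1.04, which leaves room for a change of up to about 1 log2 unit either way. In HepG2 the effects ran from -0.10 for SLC39A1 (95% interval -0.24 to 0.03) to 0.13 for SLC39A11 (95% interval -0.12 to 0.39), again with a median of 0.03 against 0.01. SLC39A14, the main hepatic importer, had an effect of -0.08 in HepG2 (95% interval -0.36 to 0.21).

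Individual libraries with and without FFAs overlapped for all 10 members in mono-cultured Caco-2 cells (7.13% of all genes did not overlap), in mono-cultured HepG2 cells (6.47%) and in co-cultured HepG2 cells (5.42%). In co-cultured Caco-2 cells SLC39A9 and SLC39A10 did not overlap, beside 17.2% of all genes, a comparison with only 2 control libraries. SLC39A9 was at 60.4 and 59.6 TPM in those controls and at 69.4, 68.6 and 61.6 TPM with FFAs. SLC39A10 was at 38.1 and 33.0 TPM in controls and at 45.3, 40.5 and 38.3 TPM with FFAs. Neither difference passed the test.

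Co-culture with the other line was compared with mono-culture next, and again no member was called. The share of all genes called in Caco-2 was 0.0199% in controls, 0% with FFAs and 0% with both treatments averaged, and in HepG2 0%, 0% and 0.0561%. At an unadjusted p under 0.05, members passing in Caco-2 were 1 in controls (background 5.43%), 1 with FFAs (6.09%) and 3 with both averaged (10.5%). In HepG2 they were 1 (7.53%), 2 (5.63%) and 2 (12.5%). The members behind these counts were SLC39A1, SLC39A5 and, in Caco-2, SLC39A10.

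In HepG2, SLC39A1 had a mean of 128 ± 7.36 TPM in mono-cultured controls and 146 ± 5.02 TPM in co-cultured controls, and 118 ± 5.07 and 137 ± 6.99 TPM with FFAs (mean ± standard deviation, n = 3 each). The co-cultured libraries lay above the mono-cultured ones in controls and with FFAs, while 14.9% and 9.6% of all genes did not overlap in these comparisons. The change averaged over both treatments was 0.21 (log2, SE 0.06, 95% interval 0.07 to 0.34), with a limma adjusted p of 0.202. In Caco-2 the averaged SLC39A1 change was -0.16 (SE 0.07, adjusted p = 0.459), from means of 275.9 ± 12.9 and 257 ± 26.4 TPM in mono-culture (n = 3 each) to 247 ± 28.01 (n = 2) and 230.1 ± 9.41 TPM (n = 3) in co-culture, controls before FFAs.

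For SLC39A5 the differences had the opposite sign in each line, also without passing the test. In HepG2 its means were 100.1 ± 26.4 and 101 ± 22.0 TPM in mono-culture and 69.6 ± 22.1 and 66.5 ± 6.98 TPM in co-culture, controls before FFAs (n = 3 each), and the averaged change was -0.56 (log2, SE 0.18, 95% interval -0.96 to -0.16, limma adjusted p = 0.258). The HepG2 libraries did not overlap with FFAs (9.6% of all genes), at 97.1, 125 and 81.5 TPM in mono-culture against 73.5, 66.5 and 59.5 TPM in co-culture. They did overlap in controls, where replicate 3 was the lowest library of each culture. With the replicate number as a block, an alternative run, the averaged HepG2 change was called (-0.56, limma adjusted p = 0.0225), as 1 of 492 genes. In Caco-2 the averaged SLC39A5 change was 0.29 (SE 0.13, 95% interval 0.01 to 0.58, adjusted p = 0.459).

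Of the other members, SLC39A10 in Caco-2 had an averaged change of -0.21 (log2, SE 0.08, limma adjusted p = 0.427). Co-cultured and mono-cultured Caco-2 controls did not overlap for SLC39A11, which was higher in co-culture, nor for SLC39A7, SLC39A8 and SLC39A10, which were lower, beside 23.1% of all genes. With FFAs all 10 members overlapped between the Caco-2 cultures (9.32% of all genes did not). In HepG2 controls SLC39A11 did not overlap either (14.9% of all genes did not), with 26.6, 26.4 and 27.4 TPM in mono-culture and 25.4, 21.1 and 23.8 TPM in co-culture. The averaged HepG2 changes of SLC39A11 (-0.25, adjusted p = 0.414) and SLC39A4 (-0.28, adjusted p = 0.488) were not called.

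**Figure D4:**
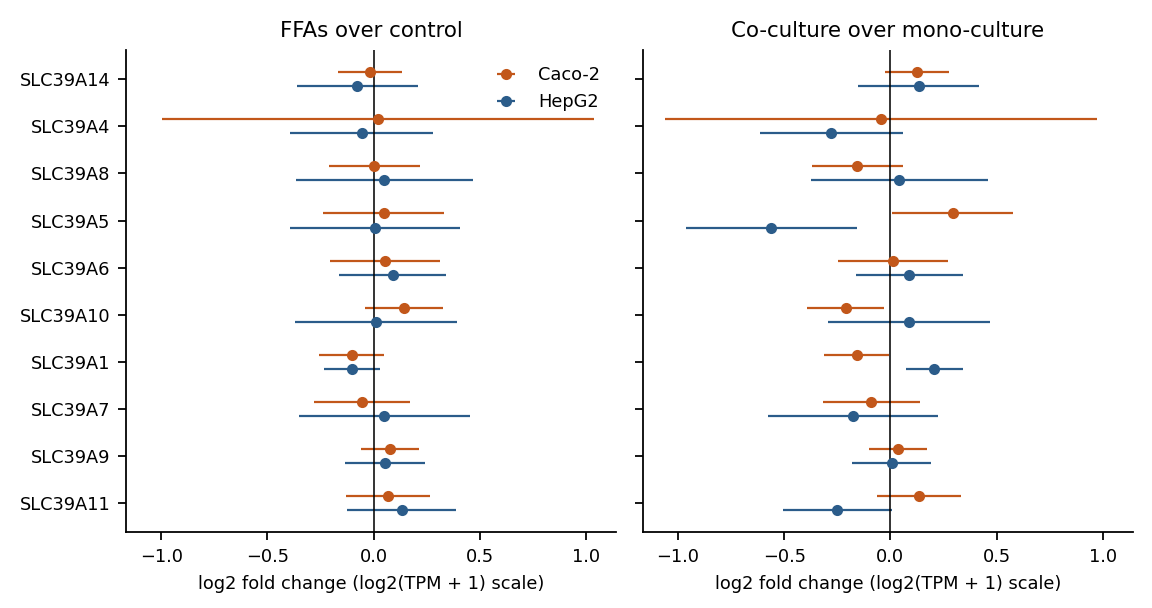
Change of each member within Caco-2 (orange) and HepG2 (blue), on log2(TPM + 1), for FFAs over control with both cultures averaged and for co-culture over mono-culture with both treatments averaged, with bars for 95% intervals. The FFAs intervals all include 0, the co-culture intervals leave out 0 for SLC39A1 and SLC39A5 in both lines, with opposite signs, and for SLC39A10 in Caco-2, and no change passed the adjusted test.

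Whether co-culture acted differently on the lines was tested directly as the co-culture effect in Caco-2 minus that in HepG2, a contrast added after the culture differences had been seen. The difference was -0.37 (log2) for SLC39A1 (SE 0.09, 95% interval -0.55 to -0.18, limma adjusted p = 0.0658), 0.85 for SLC39A5 (SE 0.25, 95% interval 0.34 to 1.37, adjusted p = 0.110) and 0.39 for SLC39A11 (SE 0.15, adjusted p = 0.230). None was called, while 0.533% of all genes were. At an unadjusted p under 0.05 these 3 members passed, beside 14.6% of all genes. The hepatocyte markers differed in the same contrast, with 10 of 10 above 0 (median 0.44, all genes 0.05) and 2 called, the fibrinogen genes FGA and FGB. Within the lines 9 of 10 of these markers were above 0 in Caco-2 (median 0.30) and 10 of 10 below 0 in HepG2 (median -0.23), none of them called, which is also the sign of SLC39A5 in each line. Their part in the member differences was not tested. The call of SLC39A1 depended on single libraries. Its adjusted p was 0.0387 without replicate 1 of the co-cultured Caco-2 controls, 0.0251 without replicate 3 of the mono-cultured Caco-2 cells with FFAs and 0.0484 without replicate 3 of the mono-cultured HepG2 controls, the last of which also brought SLC39A5 to 0.0462. Without the co-cultured Caco-2 libraries highest in TF, the SLC39A1 difference was -0.42 (adjusted p = 0.0437).

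To take in the FFAs conditions, the study selected genes by a one-way analysis of variance over the 4 groups of a line. The limits were an unadjusted p under 0.05 and at least a 1.2-fold difference between some pair of groups. On log2(TPM + 1) this selection took SLC39A1 in HepG2, beside 3.56% of the genes, and no member in Caco-2, beside 3.08%. The largest difference between HepG2 group means of SLC39A1 was 0.31 (log2). No HepG2 member was selected once p was adjusted. For mono-culture against co-culture the study used DESeq2 with limits of its own, which was not run here because no counts were used.

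The rest of the zinc and metal genes were compared between the lines in mono-cultured controls, with the same test. Among the 4 other SLC39 genes, SLC39A3 and SLC39A13 could be tested, and both were lower in Caco-2. SLC39A3 was at 44.9 to 50.1 TPM in mono-cultured Caco-2 controls and 71.7 to 75.8 TPM in HepG2 (-0.65, adjusted p = 0.00013), and SLC39A13 had a change of -0.54 (adjusted p = 0.00215). SLC39A2 did not exceed 0.76 TPM in any library, and SLC39A12 was listed at 0 in all of them. Within HepG2, SLC39A3 had a co-culture change of 0.41 that was not called (adjusted p = 0.125).

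Of 10 exporters of the SLC30 family, which carry zinc or manganese out of the cytosol, 8 could be tested. In Caco-2 2 were higher and 2 lower, beside 62.4% of all genes called in this contrast. SLC30A10, a manganese exporter, was at 1.29 ± 0.29 TPM in Caco-2 and 30.7 ± 12.2 TPM in HepG2 (n = 3 each), a change of -3.72 (adjusted p = 2.31e-09). SLC30A7, a zinc carrier of the Golgi, was lower by comparison at -0.90 (adjusted p = 2.5e-05). SLC30A5, also of the Golgi and the most abundant of the list in Caco-2, was higher there by 0.64 (adjusted p = 2.68e-05), while SLC30A2, the other exporter counted as higher, was at 0.52 TPM and entered the test only through its 1.12 TPM in co-cultured Caco-2 cells with FFAs.

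The metallothioneins, small proteins that bind zinc, followed one direction. Of 12 genes including MTF1, 8 could be tested and 6 were lower in Caco-2 (62.4% of all genes were called in either direction). These were MT1A, MT1E, MT1F, MT1G, MT1X and MT2A, with none higher. Among them MT1A and MT1E entered the test only through HepG2, which limits what their direction shows. Their Caco-2 group averages were at most 0.95 and 0.89 TPM. MT2A was at 4.19, 12.3 and 4.74 TPM in mono-cultured Caco-2 controls and at 889, 474 and 1047 TPM in HepG2 (-6.70, adjusted p = 5.12e-07). MT1G was listed at 0, 0.57 and 0 TPM in Caco-2 and at 233, 124 and 121 TPM in HepG2. Metallothionein genes are near-identical copies, so how reads were divided among them is uncertain. MTF1 itself was at similar levels in the lines (-0.13, adjusted p = 0.741).

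All 6 other genes of iron and manganese transport were called between the lines, 4 higher and 2 lower in Caco-2, beside 62.4% of all genes. The iron exporter SLC40A1 was higher by 2.00 (log2, adjusted p = 2.22e-06), the transferrin receptor TFRC by 1.08 (adjusted p = 9.02e-05), the divalent metal importer SLC11A2 by 0.99 (adjusted p = 2.21e-08) and ATP2C1, a calcium and manganese pump of the Golgi, by 0.75 (adjusted p = 1.4e-05). TFR2, the hepatocyte transferrin receptor, had a change of -4.64 (adjusted p = 2.49e-13) and STEAP3, an iron reductase, of -0.57 (adjusted p = 0.0045). In every comparison within a line, no gene of these 4 lists was called. With FFAs in co-cultured HepG2 cells 7 of 8 genes of the metallothionein list had values above 0 (median 0.65 on the log2 scale, all genes 0.01). At an unadjusted p under 0.05 MT1E, MT1F and MT1G passed, beside 1.84% of all genes. MT1F had the largest change of the list, 1.21 (SE 0.32, limma adjusted p = 1). It was at 39.0, 30.7 and 45.2 TPM in these controls and at 88.4, 113 and 70.04 TPM with FFAs. Its libraries did not overlap, beside 5.42% of all genes. In mono-cultured HepG2 cells MT1F averaged 75.5 TPM in controls and 81.7 TPM with FFAs, so the co-cultured controls were its lowest HepG2 group. Between co-cultured and mono-cultured HepG2 controls 7 of 8 genes of this list were below 0 (median -0.26, all genes -0.02). There 1 passed at an unadjusted p under 0.05, beside 7.53% of all genes. With FFAs in co-cultured Caco-2 cells 5 of 5 genes tested were above 0 (median 0.51), none at an unadjusted p under 0.05. In mono-culture 5 of 8 were above 0 in HepG2 (median 0.13) and 3 of 5 in Caco-2 (median 0.01).

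The genes whose log2(TPM + 1) correlated most with SLC39A4 over the 23 libraries were MTTP (Pearson r = 0.992), ACTA2 (0.991) and C3 (0.991). For SLC39A5 they were PHYH (0.981), REEP6 (0.976) and FBXO6 (0.974), and for SLC39A14 they were SNTB1, ENPP1 and ZFAND5 (0.983 each). These correlations are descriptions among 16495 genes, and the difference between the lines is shared by all points.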

How the data were processed

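The deposited values were TPM per gene in 23 libraries (SMART-Seq v4, poly(A)-primed), and no counts were used, so the sequencing depth is unknown. The authors removed ribosomal, transfer and mitochondrial RNA reads with Bowtie2 2.1.0, aligned the rest to GRCh38 with STAR 2.7.1a and made the TPM with RSEM 1.3.0 (versions also in the submitters' processing notes). TPM were analysed as log2(TPM + 1) in limma 3.58.1 (R 4.3.3) with an intensity trend and Benjamini-Hochberg adjustment, for genes averaging 1 TPM or more in some group. Caco-2 and HepG2 were fitted separately for FFAs and culture, and together for the comparison of lines. The tests within a line were checked on simulated data with independent noise in each library. That check did not cover deviations shared by same-numbered libraries. All 10 members are named, and genes of the other lists where called or most abundant. The members and lists were chosen with earlier results of these data known. The contrast of co-culture effects and the omission of several libraries at once were added after the values were seen. Other alternatives were the pseudocount (0.1), the filter (5 TPM or none), scaling, leaving out each library and the replicate number as a block.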

Additional observations from a re-analysis of the deposited data

Results flagged for a closer look

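SLC39A11 was singled out because its libraries differed in opposite directions between co-cultured and mono-cultured controls of the lines. In Caco-2 both co-cultured controls (23.4 and 27.7 TPM) were above the 3 mono-cultured controls (23, 20.9 and 22.4 TPM), a change of 0.19 (log2). In HepG2 the 3 co-cultured controls (25.4, 21.1 and 23.8 TPM) were below the 3 mono-cultured ones (26.6, 26.4 and 27.4 TPM). Libraries did not overlap for 23.1% of all genes in this Caco-2 comparison and for 14.9% in the HepG2 one. The difference was not tested for controls alone. With both treatments averaged it was 0.39 and was not called (limma adjusted p = 0.230).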

How the results depend on the processing

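Between the lines, 7 to 9 members were called over the 4 contrasts and every alternative run, and no member that was called changed direction. SLC39A5 with FFAs in mono-culture lost its call after quantile normalization (adjusted p = 0.0519). Within each line, 0 members were called in the FFAs comparisons under every alternative run. Of the log2 changes recomputed under alternatives that kept all replicates or left out several, 399 kept their direction and side of the threshold, 5 gained a call and 1 lost it, and of those leaving out 1 library 858 did and 4 gained a call. Same-numbered libraries of a line deviated together in part. In Caco-2 their r was -0.09 to 0.31 (median 0.09, with 7 of 15 pairs over 0.1). In HepG2 it was 0.03 to 0.60 (median 0.30, with 15 of 18 over 0.1). Pairs with different numbers had r of -0.28 to 0.28 in Caco-2 (median -0.12) and -0.49 to 0.34 in HepG2 (median -0.23). Replicate 2 of the co-cultured Caco-2 controls deviated with the Caco-2 libraries numbered 3 (r = 0.18 to 0.28). With those numbered 2 its r was -0.09 to -0.01. Its group held 2 libraries, whose deviations mirror each other. The block run and the run without libraries numbered 3 used the numbers as given. The labels do not tie the numbers to cultures, so the numbers were not taken as pairing. The main tests therefore do not account for what same-numbered libraries share. With the replicate number as a block, the averaged co-culture comparison in HepG2 called 1 member, SLC39A5 (-0.56, limma adjusted p = 0.0225), among 492 genes instead of 8. The study's criteria then took 1 member in Caco-2 (SLC39A10) and 2 in HepG2 (SLC39A1 and SLC39A5). The contrast of co-culture effects called 2 members with this block (SLC39A1, limma adjusted p = 0.0371, and SLC39A5, 0.0152). In that fit a block held the same-numbered libraries of both lines, which no label links. That contrast called 0 to 2 members when 1 library was left out, 1 (SLC39A1) without the co-cultured Caco-2 libraries highest in TF and 1 (SLC39A5) without all libraries numbered 3. The study's criteria took 0 to 1 Caco-2 members when 1 library was left out, the 1 being SLC39A10 without replicate 3 of the mono-cultured FFAs group, and 1 (SLC39A8) without the libraries highest in TF. In HepG2 they took 0 members with adjusted p, and SLC39A5 in place of SLC39A1 without all libraries numbered 3. The causes were not tested. Depth is unknown, and levels near 1 TPM, as of SLC39A8 in HepG2, are the least certain.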
